A study of Mus musculus with 7 samples.

Results

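Nuclear genes that shape and clear mitochondria were followed through 7 RNA-seq libraries of mouse inguinal white adipose tissue, the subcutaneous fat pad of the groin. They were taken by symbol from a deposited table of 29517 Entrez genes, and all 10 members were found: Mfn1, Mfn2 and Opa1 for fusion, Dnm1l, Fis1 and Mff for fission, and Pink1, Bnip3, Bnip3l and Fundc1 for mitophagy. The 3 knockout (KO) libraries came from TM4SF5-/- mice and the 4 wild-type (WT) libraries from wild-type mice, all C57BL/6, untreated, fed standard chow and housed at 22 °C. The labels give neither age nor sex, nor whether the knockout is confined to a cell type, nor which part of Tm4sf5, a gene for a membrane protein of the L6 family, was deleted. The series asked what TM4SF5 deficiency does to the transcriptome of this fat pad.

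Mitochondria fuse and divide without pause. The mitofusins Mfn1 and Mfn2 join outer membranes and Opa1 joins inner membranes, while the dynamin-like GTPase encoded by Dnm1l is drawn to the outer membrane by receptors such as Mff and Fis1 and constricts the organelle. Damaged or surplus mitochondria are removed by mitophagy, either through the kinase Pink1, which accumulates on depolarised mitochondria and starts their marking with ubiquitin, or through the receptors Bnip3, Bnip3l and Fundc1, which sit in the outer membrane and bind LC3-type proteins of the autophagosome. In adipose tissue these systems act on the mitochondrial content of adipocytes, which is high in brown and beige fat cells and low in white ones.

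Library totals lay between 49775077 and 50704542 counts in KO and between 55717495 and 60241436 counts in WT, and every member had at least 920 counts in every library. Tm4sf5 itself was near the floor of detection, with 7, 6 and 17 counts in KO 1 to KO 3 and 33, 45, 47 and 20 counts in WT 1 to WT 4, so that KO 3 overlapped WT 4 on the CPM scale and the targeted gene did not fully separate the labelled genotypes (log2 fold change -1.35, SE 0.50, edgeR adjusted p = 0.177). The first principal component held 35.7% of the variance, and KO 1 was the most extreme library on it, at -90.6. It did not fully separate the genotypes, since KO 3, at -3.63, lay on the WT side of WT 1, at -8.48. Adipocyte markers were abundant in all libraries, with Adipoq at 1103 CPM or more in KO and 668 CPM or more in WT. All 7 libraries carried Y-linked messages, with Ddx3y at 71.9 to 107 CPM in KO and 82.0 to 108 CPM in WT, and almost no Xist, so the X-linked Fundc1 was read from libraries of 1 sex pattern. Messages encoded by mitochondrial DNA took 16.0% to 18.9% of counts in KO and 8.07% to 12.1% in WT.

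In the RefSeq annotation of GRCm38.p6, the assembly also called mm10, the fusion genes are Mfn1 (Entrez 67414) at chr3:32529443-32579225 on the plus strand, Mfn2 (Entrez 170731) at chr4:147873586-147904909 on the minus strand and Opa1 (Entrez 74143) at chr16:29579281-29663127 on the plus strand. The fission genes are Dnm1l (Entrez 74006) at chr16:16312228-16359038 on the minus strand, Fis1 (Entrez 66437) at chr5:136953275-136966234 on the plus strand and Mff (Entrez 75734) at chr1:82724890-82752390 on the plus strand. The mitophagy genes are Pink1 (Entrez 68943) at chr4:138313409-138326296 on the minus strand, Bnip3 (Entrez 12176) at chr7:138890836-138909506 on the minus strand, Bnip3l (Entrez 12177) at chr14:66985238-67008877 on the minus strand and Fundc1 (Entrez 72018) at chrX:17519967-17572329 on the minus strand. Each count is one value per gene, so transcript variants of a member are not resolved. Some members share letters in their promoters. RefSeq promoter windows of GRCm38.p6, from 250 bases before to 50 after a start, were found for 9 of the 10 members (14 windows), all but Bnip3l. The nuclear respiratory factor 1 (NRF1) motif, GCGC and TGCGC with any base between, stood in 3 of the 14 windows, of Bnip3, Opa1 and Pink1. It stood in 4.6% of all 32851 windows of the table. The ETS-type motif CCGGAAGT, bound by the factor GABP, stood in 3 of the 14, of Fis1 and Mfn1, and in 3.89% of all windows. The E-box CACGTG stood in 1 of the 14, of Bnip3, and in 7.15% of all windows. It contains, on both strands, the hypoxia-inducible factor (HIF) core ACGTG. That core occurred in 3 of the 14, of Bnip3 and 2 overlapping windows of Mfn2, and in 19.6% of all windows, a similar share. AAGGTCA (oestrogen-related receptors), the YY1 motif and GTAAACA (FoxO) were in no member window on either strand, against 4.72%, 0.852% and 3.65% of all windows. At such shares, absence from 14 windows says little. The stretches of 80 bases upstream of the start that hold these letters are shown for a mitophagy receptor, the mitophagy kinase and a fission receptor, on the gene's strand, with the NRF1 and E-box or the ETS letters in capitals.
Bnip3 (chr7:138909587-138909666, minus strand): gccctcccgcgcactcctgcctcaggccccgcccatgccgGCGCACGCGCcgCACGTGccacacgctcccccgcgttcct
Pink1 (chr4:138326297-138326376, minus strand): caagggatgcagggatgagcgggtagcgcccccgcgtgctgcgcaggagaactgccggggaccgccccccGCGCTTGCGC
Fis1 (chr5:136953195-136953274, plus strand): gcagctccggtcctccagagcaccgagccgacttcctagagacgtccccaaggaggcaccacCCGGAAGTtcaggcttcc
In Bnip3 the NRF1 letters (bases -120 to -111, matched on the opposite strand) lie just before the E-box (bases -108 to -103), and in Pink1 they end at base -1.

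KO and WT were compared first over all genes. Levels are CPM, counts scaled to a common library size, with library sizes adjusted by trimmed means of M values (TMM), and fold changes are KO over WT on a log2 scale from edgeR's quasi-likelihood test. No member passed the adjusted threshold of 0.05, and none of the 19185 genes tested did (0% called, smallest edgeR adjusted p = 0.0798). The unadjusted edgeR p was under 0.05 for 4187 genes (21.8%), while after adjustment limma-voom called 1 gene and DESeq2 called 2158. With DESeq2, 2 members passed, Mfn2 (DESeq2 adjusted p = 0.0244) and Pink1 (DESeq2 adjusted p = 0.0385), both higher in KO, where DESeq2 called 12.8% of the genes to which it gave an adjusted p, 7.26% as higher. By the unadjusted edgeR p, 6 of the 10 members were higher in KO and 0 lower, against 12.3% of all genes tested higher and 9.51% lower. Members are expressed well above most genes, and among the 7274 genes at least as high as the lowest member, Fundc1, 19.3% were higher by that rule. Without KO 1, the 6 became 3 (Mfn1, Mfn2 and Pink1). The members' median log2 fold change was 0.38, and that of all genes tested was -0.04. In bulk tissue, more cells of a type and more RNA per cell cannot be told apart.

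**Figure D1:**
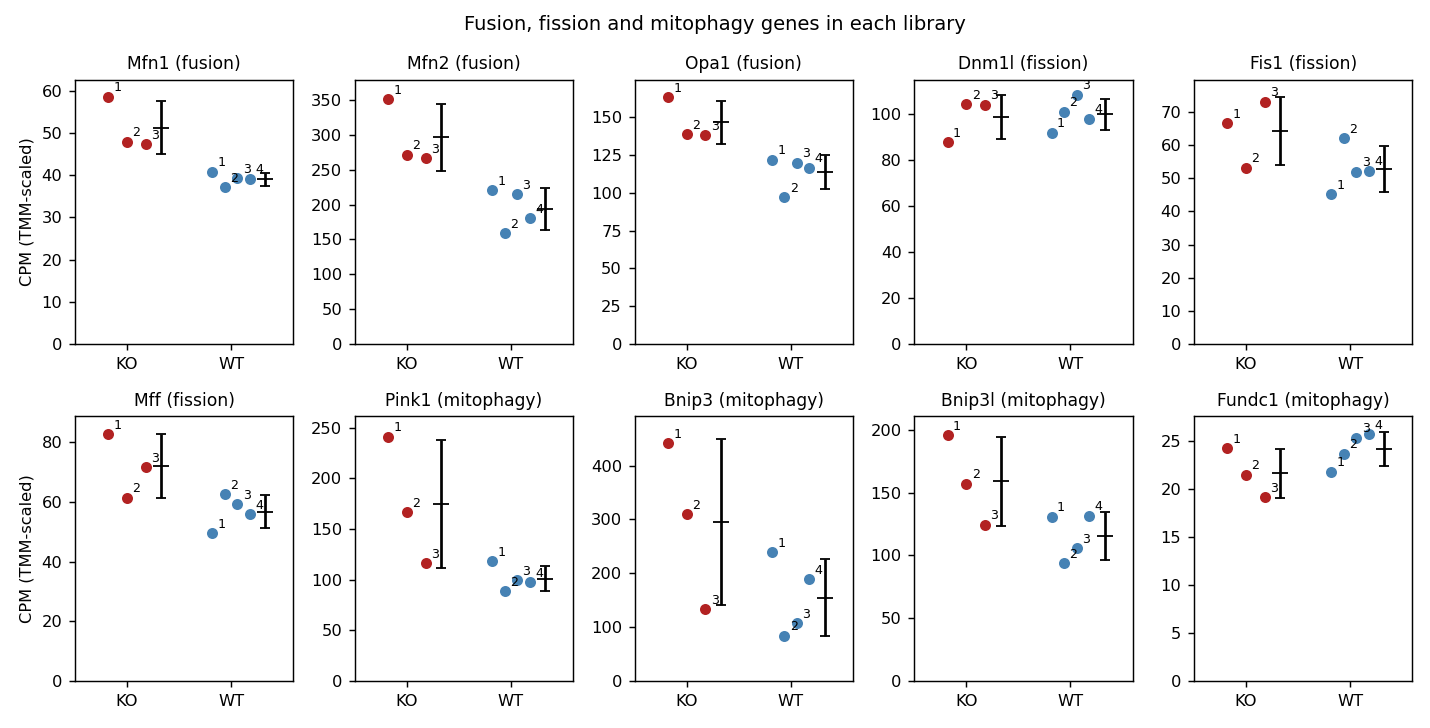
Level of each member (CPM, TMM-scaled, linear axis from 0) in 3 KO libraries (red) and 4 WT libraries (blue), with the replicate number beside each point and mean ± SD beside each group. KO and WT points are apart for Mfn1, Mfn2 and Opa1, and they overlap for the other members.

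The 3 fusion genes were higher in KO than in any WT library. Mfn2, the mitofusin that in mouse brown adipocytes has also been linked to contacts between mitochondria and lipid droplets, had 351, 271 and 266 CPM in KO 1 to KO 3, against 221, 159, 215 and 180 CPM in WT 1 to WT 4. The lowest KO library stood above the highest WT library, and the fold change of 1.53 (log2 0.61, SE 0.18) had an edgeR adjusted p of 0.12. Its paralog Mfn1 was less abundant, at 58.5, 47.9 and 47.3 CPM in KO, against 40.8, 37.1, 39.2 and 39.1 CPM in WT. The WT libraries lay close together and below all KO libraries (log2 0.39, SE 0.13, edgeR adjusted p = 0.139). Opa1, the inner membrane GTPase whose cleavage by proteases sets its activity, had 163, 139 and 138 CPM in KO, against 122, 97.0, 120 and 116 CPM in WT. Its groups did not overlap either (log2 0.36, SE 0.14, edgeR adjusted p = 0.183). Of all genes tested, 11.4% had every KO library above every WT library and 8.92% every KO library below, and of those at least as high as Fundc1 17.9% had every KO library above. All 3 fusion genes had KO 1 highest and WT 2 lowest.

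All 3 fission genes overlapped between genotypes, and whether their differences were smaller than those of the fusion genes was not tested. Dnm1l, the fission GTPase, had 87.5, 104 and 104 CPM in KO, against 91.7, 101, 108 and 97.8 CPM in WT. KO 1, the highest library for every fusion gene, was the lowest for Dnm1l, and the means of 98.5 ± 9.49 CPM in KO (SD, n = 3) and 99.7 ± 6.85 CPM in WT (SD, n = 4) differed by less than the spread. The fit gave -0.02 on the log2 scale (SE 0.13), and it was positive without KO 1 (0.06). Mff, the main outer membrane receptor of this GTPase in mammals, had 82.8, 61.5 and 71.6 CPM in KO, against 49.5, 62.5, 59.2 and 55.8 CPM in WT. KO 2 lay below WT 2, and the fit gave 0.34 on the log2 scale (SE 0.15, edgeR adjusted p = 0.224). Fis1, a small tail-anchored protein of the same membrane, had 66.5, 53.1 and 73.0 CPM in KO, against 45.1, 62.0, 52.0 and 52.2 CPM in WT. KO 2 again lay within the WT range (log2 0.28, SE 0.16, edgeR adjusted p = 0.341).

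Among the mitophagy genes, Pink1 and Bnip3 had the largest fold changes of the 10 members over all 7 libraries, with a wide spread in KO for both and in WT for Bnip3. Without KO 1 the log2 fold changes were 0.49 for Pink1, 0.53 for Bnip3 and 0.29 for Bnip3l, against 0.47 for Mfn2. Pink1 had 241, 167 and 116 CPM in KO, against 118, 88.6, 99.4 and 97.5 CPM in WT. KO 1 and KO 2 stood above all WT libraries and KO 3 lay just below WT 1 (1.73-fold, log2 0.79, SE 0.24, edgeR adjusted p = 0.129). Bnip3, a receptor whose transcription is known to be driven by hypoxia-inducible factors, had 442, 310 and 134 CPM in KO, against 239, 83.9, 107 and 190 CPM in WT. KO 3 was below WT 1 and WT 4, and the WT libraries themselves spanned a wide range, so the 1.91-fold difference (log2 0.93, SE 0.47) had an edgeR adjusted p of 0.285. Bnip3l, its paralog, also known as Nix and needed for mitochondrial clearance in maturing red cells, had 196, 157 and 124 CPM in KO, against 131, 93.7, 106 and 132 CPM in WT (log2 0.46, SE 0.20, edgeR adjusted p = 0.224). Fundc1 was the member with the lowest CPM and had the opposite sign. It had 24.2, 21.5 and 19.1 CPM in KO, against 21.8, 23.7, 25.3 and 25.6 CPM in WT (log2 -0.16, SE 0.14, edgeR adjusted p = 0.525), with KO 1 inside the WT range.

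Several counts carry an annotation limit. An annotated pseudogene, Bnip3l-ps, had 4.28 to 7.22 CPM in KO and 3.50 to 4.51 CPM in WT beside the 124 CPM or more and 93.7 CPM or more of Bnip3l. Antisense genes share 504 exonic bases with Bnip3 and 243 with Dnm1l in GENCODE M21 and have no row of their own in the table, and a transcript on the other strand shares 195 with Mff at 18 to 43 counts a library. On the same strand, the microRNA annotations Mir7019 and Gm27646 share 69 and 110 exonic bases with Pink1; Mir7019 had 4 to 6 counts a library, and Gm27646 has no row of its own. The strand setting of the counting is not given in the sources used here, so reads of these partners cannot be told apart from the member's.

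Levels were set against each other only per length, as CPM per kb of the longest principal transcript in GENCODE M21. Bnip3 was highest, at 168 ± 88.1 per kb in KO (SD, n = 3) and 88.1 ± 41.0 per kb in WT (SD, n = 4). Fis1 followed with 81.7 ± 12.9 in KO and 67.2 ± 8.84 in WT, within the spread of Bnip3. Pink1 (73.5 ± 26.5 in KO, 42.5 ± 5.26 in WT) and Mfn2 (68.2 ± 10.99 in KO, 44.6 ± 6.79 in WT) did not differ beyond their spread in either genotype. Bnip3l, Mff, Dnm1l and Opa1 came next, in this order in both genotypes, and ran down to 23.5 ± 2.29 in KO and 18.3 ± 1.82 in WT for Opa1. Mfn1 (11.2 ± 1.38 in KO, 8.56 ± 0.332 in WT) and Fundc1 (10.9 ± 1.29 in KO, 12.2 ± 0.894 in WT) were lowest. Mff held the last place instead when all its annotated exons, 9757 bases, were used in place of the 1894 bases of that transcript. Fis1, with 1714 bases in place of 786, was then at 37.4 per kb in KO and 30.8 per kb in WT, in place 5 in KO and 4 in WT.

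Ratios of CPM within a library compare partner genes between genotypes without any scaling of the libraries. They are not corrected for length, so they do not rank the 2 genes of a pair. The outer membrane fusion pair, Mfn2 to Mfn1, was 5.99, 5.65 and 5.62 in KO, against 5.40, 4.27, 5.48 and 4.60 in WT. All 3 KO libraries were above all WT libraries, by a log2 difference of 0.23, at an exact two-sided permutation p of 0.114 (0.229 after Benjamini-Hochberg adjustment over 4 ratios). The ratio of the inner membrane fusion GTPase to the fission GTPase, Opa1 to Dnm1l, was 1.86, 1.33 and 1.33 in KO, against 1.33, 0.961, 1.11 and 1.19 in WT. KO 3 tied with WT 1 to the digits shown, and the log2 difference of 0.39 had an exact permutation p of 0.0857 (adjusted 0.229). The 2 receptors of the fission GTPase kept a ratio near 1, with Mff to Fis1 at 1.24, 1.16 and 0.982 in KO, against 1.10, 1.01, 1.14 and 1.07 in WT (log2 difference 0.06, exact permutation p = 0.571, adjusted 0.571). Bnip3 to Bnip3l varied most, at 2.26, 1.97 and 1.07 in KO, against 1.83, 0.895, 1.01 and 1.44 in WT (log2 difference 0.44, exact permutation p = 0.286, adjusted 0.381). Without KO 1 the difference was 0.22 for Opa1 to Dnm1l and 0.23 for Bnip3 to Bnip3l, and the second was 0.28 without WT 2 and 0.77 without KO 3. With 7 libraries the smallest p this test can give before adjustment is 0.0286. A single ratio at that p could not pass after adjustment over the 4 ratios. None of the 4 ratios passed, an outcome that the number of libraries made hard to avoid.

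**Figure D2:**
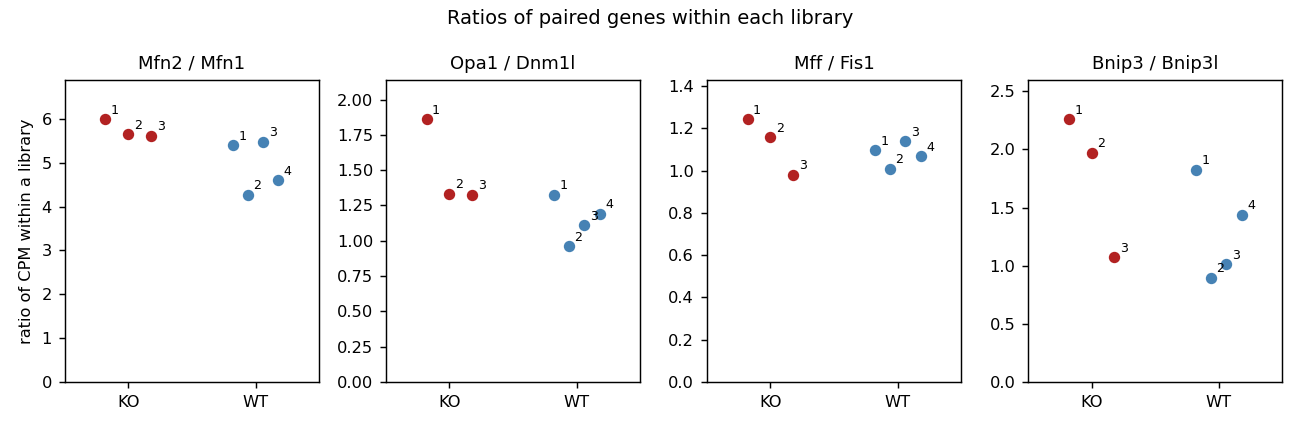
Ratio of the CPM of 2 genes within each library (linear axis from 0) for 3 KO libraries (red) and 4 WT libraries (blue), with replicate numbers. For Mfn2 to Mfn1 every KO library, from 5.62 to 5.99, lies above every WT library, and for Bnip3 to Bnip3l the WT libraries alone run from 0.895 to 1.83.

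Across single libraries 2 patterns were singled out among the members after their values were seen, and Dnm1l and Fundc1 followed neither. Mfn1, Mfn2 and Opa1 had the same order of all 7 libraries, KO 1 > KO 2 > KO 3 > WT 1 > WT 3 > WT 4 > WT 2, an order found in 0.302% of all genes tested. Pink1, Bnip3 and Bnip3l shared with them KO 1 > KO 2 > KO 3 and WT 2 as the lowest WT library, which 6 of the 10 members and 5.46% of all genes tested had. The summed CPM of 12 adipocyte markers ran in nearly the same order, at 34340, 23690 and 19420 in KO 1 to KO 3, against 17510, 11500, 11810 and 17030 in WT 1 to WT 4. Fabp4, at means of 10150 CPM in KO and 4649 CPM in WT, and Cfd, at 4722 and 3862 CPM, were the largest parts of this sum. Of the 12 markers, 11 had a positive log2 fold change and Lep a negative one (-0.56, SE 0.70). Mff and Fis1 instead had KO 2 below KO 1 and KO 3, WT 2 as the highest and WT 1 as the lowest WT library. The summed CPM of 30 respiratory chain genes had these features too, with 18970, 10990 and 15170 in KO, against 8060, 8922, 8590 and 8443 in WT. The share of all genes tested with the features of Mff and Fis1 was not counted, so how unusual they are is not known. With libraries scaled by total counts, the shared order of the fusion genes was lost (KO 2 lay within the WT range for Mfn1 and Opa1), while Mfn2 still had all KO libraries above all WT libraries and Bnip3 kept its order of libraries.

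**Figure D3:**
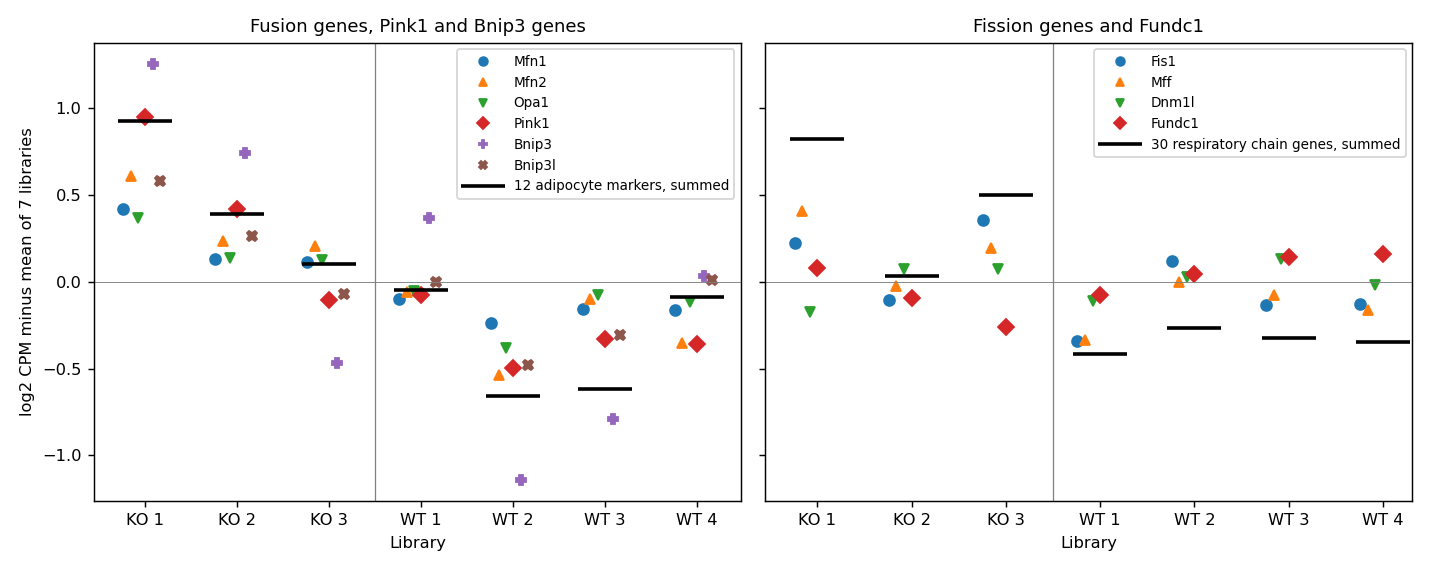
log2 CPM of each member minus its mean over 7 libraries, for 3 KO libraries left of the grey line and 4 WT libraries right of it; black bars give the summed CPM of 12 adipocyte markers (left) or 30 respiratory chain genes (right) on the same scale. Fusion genes, Pink1, Bnip3 and Bnip3l are highest in KO 1 and lowest among WT in WT 2, as is the adipocyte marker sum, whereas Fis1 and Mff have KO 2 as their lowest KO library, as the respiratory chain sum does.

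The scaling of the libraries bears on the sign of several members. With total counts alone the median over all genes tested moved to -0.35 on the log2 scale, and the 4187 genes at an unadjusted p under 0.05, 2363 higher and 1824 lower, became 694 higher (3.62%) and 4871 lower (25.4%). Under that scaling Mfn2 (0.29), Pink1 (0.45) and Bnip3 (0.58) kept a positive log2 fold change of some size. Bnip3l (0.13), Mfn1 (0.07), Opa1 (0.04), Mff (0.01) and Fis1 (-0.04) were within their SE of 0. Dnm1l (-0.33) and Fundc1 (-0.49) were negative. At an unadjusted edgeR p under 0.05, 0 members were then higher and 1, Fundc1, was lower (edgeR adjusted p = 0.104). Adipocyte markers differed along with the members: 6 of 12 were higher in KO at an unadjusted p under 0.05 and 0 lower (2 and 0 without KO 1), with a median of 0.71 on the log2 scale. When the libraries were scaled so that these markers were equal, a setting chosen after seeing the data, the median of all genes was -0.69. The members' log2 fold changes were then 0.20 (SE 0.35) for Bnip3, 0.06 (SE 0.24) for Pink1 and -0.06 (SE 0.26) for Mfn2, and between -0.24 and -0.86 for the other 7. None passed after adjustment.

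The second comparison asked whether members differed between genotypes by another amount than the respiratory chain genes did. All 30 nuclear-encoded subunits on that list were higher in KO at an unadjusted p under 0.05 with a median of 0.85 on the log2 scale, and none passed after adjustment; 28 were past that p without KO 1 and 19 with total counts alone. With libraries scaled so that this list was equal, the median of all genes tested was -0.80 on the log2 scale. Under that scaling 9 of the 10 members had a negative log2 fold change and Bnip3 a positive one (0.11, SE 0.48). Negative signs were thus common among all genes. Fundc1 was lower in KO relative to the respiratory chain genes (log2 -0.94, SE 0.24, edgeR adjusted p = 0.0376). It was the 1 member that passed, in a fit that called 30.2% of all genes lower. Dnm1l came next (-0.77, SE 0.26, edgeR adjusted p = 0.0517), then Fis1 (-0.52), Mff (-0.46), Opa1 (-0.43), Mfn1 (-0.40), Bnip3l (-0.33), Mfn2 (-0.20) and Pink1 (-0.02). The call on Fundc1 was lost without KO 1, KO 3 or any one WT library (edgeR adjusted p between 0.0571 and 0.114), and when 18 other genes of mitochondrial content set the scale (-0.64). Without KO 2, 6 members passed, all lower (Mfn1, Opa1, Dnm1l, Fis1, Mff and Fundc1), where 50.8% of all genes were called lower.

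**Figure D4:**
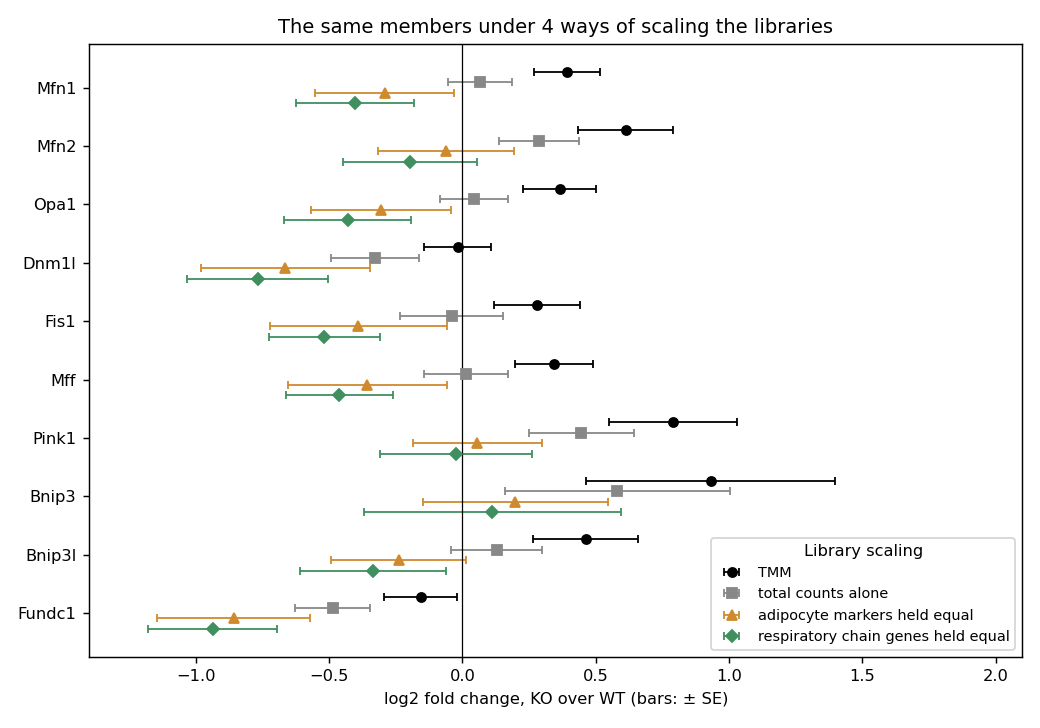
log2 fold change of each member, KO over WT (bars ± SE), with libraries scaled by TMM, by total counts alone, by 12 adipocyte markers or by 30 respiratory chain genes. Under TMM 8 of 10 members are positive, where the median of all genes tested is -0.04. With respiratory chain genes held equal 9 of 10 are negative, Fundc1 the most at -0.94, where that median is -0.80.

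Other genes of the same machinery were looked at as lists. For comparison, 12.3% of all genes tested were higher and 9.51% lower at an unadjusted edgeR p under 0.05. Among genes at least as high as Fundc1, 19.3% were higher. With total counts alone the shares of all genes were 3.62% higher and 25.4% lower. Of 20 other genes of fusion, Opa1 processing and inner membrane shape, 13 were higher in KO and 0 lower at an unadjusted edgeR p under 0.05, and 0 after adjustment, at a median of 0.54 on the log2 scale. Without KO 1 these were 10 and 0, and with total counts alone 4 higher and 2 lower. Chchd3, a subunit of the cristae-organising MICOS complex, averaged 178 ± 37.4 CPM in KO (SD, n = 3) and 102 ± 7.80 CPM in WT (SD, n = 4), or 0.80 on the log2 scale (SE 0.17). Miga2, a mitoguardin that promotes fusion, had 0.72 (SE 0.15), and Afg3l2, a subunit of an inner membrane protease, had 0.70 (SE 0.15). Slc25a46, an outer membrane protein that interacts with the fusion machinery, had 0.53 (SE 0.12). The proteases that cleave Opa1, Oma1 (-0.08) and Yme1l1 (-0.05), stood near 0; these and Miga1 (-0.51) were the 3 negative members of the list and were picked out after their values were seen.

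Of 18 other fission genes, 9 were higher by the same rule and 0 lower, none passed after adjustment, and the median was 0.37. Without KO 1 there were 6 higher and 0 lower, and with total counts alone 1 higher and 5 lower. Marchf5, a ubiquitin ligase of the outer membrane that acts on fission and fusion proteins, averaged 234 ± 29.0 CPM in KO (SD, n = 3) and 129 ± 14.5 CPM in WT (SD, n = 4), or 0.86 on the log2 scale (SE 0.15, edgeR adjusted p = 0.0956). The fission regulators Mtfr1l (0.57, SE 0.13) and Mtfr1 (0.57, SE 0.16), and Mief2 (0.70, SE 0.18), which also recruits the fission GTPase, had every KO library above every WT library. That held for 5 of the 18, against 11.4% of all genes tested and 17.9% of those at least as high as Fundc1. The named genes were picked by their small p. Of the 18, 6 had a negative log2 fold change. The most negative was Mtfr2 (-0.72, SE 0.34), at means of 0.995 CPM in KO and 1.65 CPM in WT, named after its value was seen. Of 32 other mitophagy and autophagy genes, 11 were higher and 0 lower, none passed after adjustment, and the median was 0.27. Without KO 1 there were 6 higher and 0 lower, and with total counts alone 1 higher and 3 lower, with a median of -0.05. Optn, an autophagy receptor that binds ubiquitin-marked mitochondria, averaged 99.9 ± 1.65 CPM in KO (SD, n = 3) and 63.0 ± 7.18 CPM in WT (SD, n = 4), or 0.67 on the log2 scale (SE 0.13, edgeR adjusted p = 0.0956). Vdac1 (0.54, SE 0.14), an outer membrane channel, and the LC3-type genes Map1lc3a (0.78, SE 0.22) and Gabarapl2 (0.56, SE 0.16) followed.

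**Figure D5:**
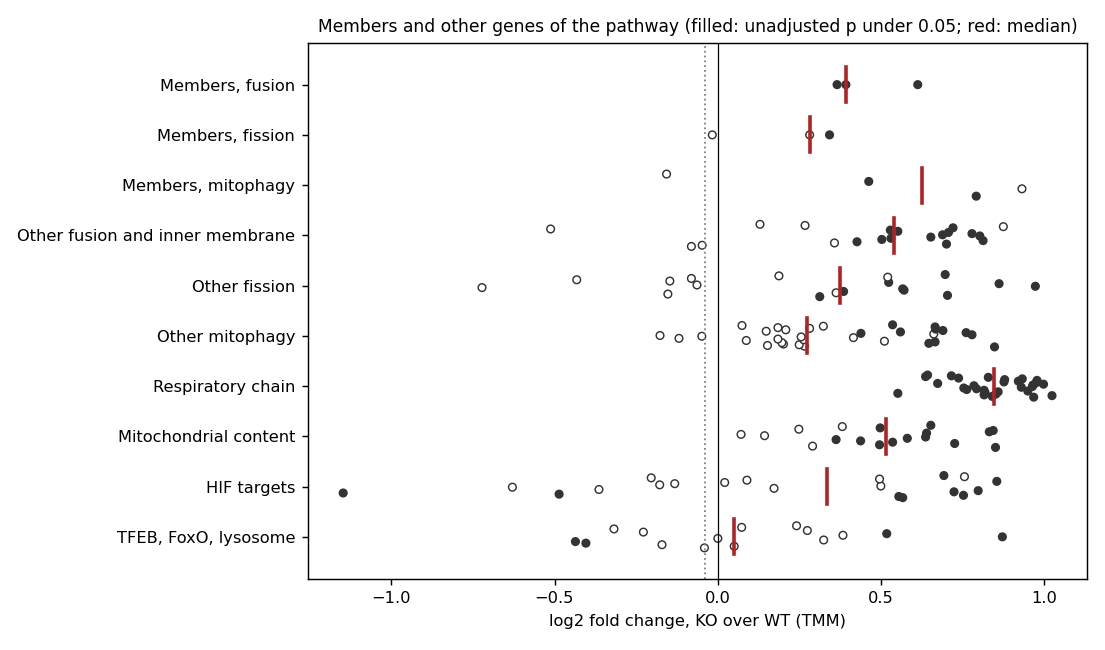
log2 fold change, KO over WT (TMM), of each member and of each gene on 7 other lists, filled where the unadjusted edgeR p was under 0.05; red bars are list medians and the dotted line is the median of all genes tested, -0.04. The respiratory chain list has the highest median, 0.85, the members of the fusion role 0.39, and the TFEB, FoxO and lysosome list 0.05.

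HIF targets held both signs, and so did genes of the TFEB and FoxO regulators and the lysosome. Both signs were common among all genes tested too. Of these, 12.3% were higher and 9.51% lower at an unadjusted edgeR p under 0.05 (3.62% and 25.4% with total counts alone). The counts of the TFEB, FoxO and lysosome list lay near the first 2 shares. Among 20 HIF targets, 7 were higher and 2 lower at an unadjusted edgeR p under 0.05, and none after adjustment, with a median of 0.33 on the log2 scale; with total counts alone 1 was higher and 4 lower. Pdk1 (0.55, SE 0.13), a kinase that restrains pyruvate entry, Higd1a (0.85, SE 0.23), a respiratory chain assembly factor, Vegfa (0.57, SE 0.16), the angiogenic factor, and Ldha (0.75, SE 0.21), lactate dehydrogenase, had the smallest p among those higher. The 2 lower genes, Slc2a1 (-0.49, SE 0.16), a glucose transporter, and Car9 (-1.15, SE 0.34), a carbonic anhydrase at under 1 CPM in either genotype, were named after their values were seen. Of 15 genes of the TFEB and FoxO regulators and the lysosome, 2 were higher and 2 lower, none passed after adjustment, and the median was 0.05 (1 higher, 4 lower and a median of -0.27 with total counts alone). The lysosomal genes Ctsd (0.87, SE 0.23), a protease, and Mcoln1 (0.52, SE 0.17), a calcium channel, were positive, while the transcription factors Foxo1 (-0.40, SE 0.14) and Foxo3 (-0.44, SE 0.17) were negative. The regulators Tfeb (-0.04, SE 0.195), Tfe3 (0.05, SE 0.155) and Mitf (-0.17, SE 0.356), named after their values were seen, were within their SE of no difference. Of 18 genes of mitochondrial content outside the respiratory chain, 13 were higher and 0 lower (4 and 0 with total counts alone), with a median of 0.52, and the smallest p were those of Lonp1 (0.83, SE 0.18), a matrix protease, Timm44 (0.72, SE 0.16), an import factor, Cs (0.85, SE 0.21), citrate synthase, and Clpp (0.84, SE 0.21), a matrix protease; Vdac1 and Immt stand on 2 lists each.

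Markers of several cell types differed along with the members, and their part in the result was not tested. The shares of all genes tested at an unadjusted edgeR p under 0.05 were 12.3% higher and 9.51% lower. Brown and beige adipocyte markers summed to between 1034 and 3199 CPM in KO and between 346 and 1303 CPM in WT, and 7 of the 11 tested were higher at an unadjusted edgeR p under 0.05, with a list median of 1.63 on the log2 scale. Otop1 (1.33, SE 0.17) and Kcnk3 (0.82, SE 0.18) had the smallest p, and Cox8b (2.14, SE 0.59) had the largest log2 fold change of the 7, named after its value was seen. Macrophage markers summed to between 546 and 879 CPM in KO and between 1635 and 2437 CPM in WT, and 12 of 12 were lower by that rule, among them C1qa (-1.45, SE 0.24) and Csf1r (-1.85, SE 0.31). Lymphocyte markers summed to between 459 and 1326 CPM in KO and between 624 and 2109 CPM in WT, with 0 of 12 past that p. Skeletal muscle, a tissue rich in Mfn2 and Pink1, was traced unevenly, at 64.1 to 239 CPM in KO and 40.2 to 1641 CPM in WT, with 0 of 12 markers past that p and the highest sums in WT 2 and WT 4. Red cell markers, relevant to Bnip3l, summed to 428 to 542 CPM in KO and 227 to 829 CPM in WT, with 0 of 7 tested past that p. Endothelial markers summed to 616 to 1228 CPM in KO and 390 to 1499 CPM in WT, with 0 of 10 past that p. Progenitor markers summed to 1404 to 4262 CPM in KO and 1138 to 14110 CPM in WT. All 10 of them had a negative log2 fold change, at a median of -0.82, and 1, Dpp4, was past that p (-1.07, SE 0.17). Epithelial markers summed to under 30 CPM in all libraries, and 2 of the 6 tested were higher (0 without KO 1), Krt18 (3.67, SE 1.12) and Krt8 (3.15, SE 0.97). Ahsp, on the red cell list, was not found in the table. No other marker on these lists was at 0 in all libraries.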

How the data were processed

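The deposited table holds raw read counts per Entrez gene, in which whole numbers differ in total between libraries. Per the submitters' processing notes, bcl2fastq 2.20.0, Trimmomatic, HISAT2 2.1.0, StringTie 1.3.4d, DESeq2 and the build mm10 were used. For the annotation, the counting rule and strandedness the sources used here give nothing. RefSeq genes of GRCm38.p6 named 29444 of 29517 identifiers. The members and lists were chosen with earlier results of these data known.

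Genes were kept by filterByExpr (minimum count 10), which left 19185, all members included. Libraries were scaled by TMM and tested with edgeR 4.0.16 (quasi-likelihood, no covariate, R 4.3.3) with Benjamini-Hochberg adjustment over all genes at 0.05; standard errors come from the F statistic. The series describes the replicates as biological, and p-values reflect the spread among these samples only. Within-library ratios use log2 CPM with a prior count of 2 and an exact permutation test over all 35 assignments of the genotype labels. Alternatives were DESeq2 1.42.0, limma-voom (limma 3.58.1), other scalings and filters, each library left out, and a replicate block. Named genes were all members, Tm4sf5, up to 4 genes with the smallest p from each pathway list and up to 2 from each marker list. On simulated KO and WT counts, edgeR recovered 5.05% of 99 genes changed 2-fold and 55.6% of 99 changed 4-fold, with 8 false calls among 68. Counts of any 2 libraries differed well beyond sampling noise (chi-square per degree of freedom 105 or more). Depth is given as counts, which cover counting error only.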

Additional observations from a re-analysis of the deposited data

Results flagged for a closer look

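Each member, ratio, named gene and summed marker list, 71 in all, was checked for a WT library far from the other 3, by Dixon's gap over range at the 95% level. Chance alone marks about 5% of such groups. No member and no ratio stood out. Lonp1, a matrix protease on the list of mitochondrial content, had WT 2 at 92.1 CPM below the other WT libraries at 106, 106 and 108 CPM (gap over range 0.889), and its KO mean of 183 CPM stood above all of them. Krt18, an epithelial keratin, had WT 3 at 0.387 CPM above the other WT libraries at 0.0488, 0.0604 and 0.0484 CPM (gap over range 0.964), all near the floor of detection.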

How the results depend on the processing

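The number of genes past an adjusted p of 0.05, 0 with edgeR, became 1 with total counts alone, 1 with limma-voom, 2158 with DESeq2 and 42 with adipocyte markers held equal, and it was 0 without any one library. Genes at an unadjusted p under 0.05 became 7080 with adipocyte markers held equal, and 2331 to 4636 without one library. Members past the adjusted threshold became 2 with DESeq2. The 6 members higher at an unadjusted p became 0 with total counts alone, 0 with adipocyte markers held equal, and 3 to 6 without one library. With adipocyte markers held equal, Mfn1 (-0.29), Mfn2 (-0.063), Opa1 (-0.30), Fis1 (-0.39), Mff (-0.36) and Bnip3l (-0.24) changed sign, and Fis1 did so with total counts alone (-0.04). Dnm1l ran from -0.054 to 0.061 without one library. Relative to respiratory chain genes, the 1 member that passed became 0 with mitochondrial content genes as the scale, where Mfn2 (0.11) and Pink1 (0.29) turned positive, 0 with the replicate block, and 0 to 6 without one library; there Pink1 ran from -0.24 to 0.23 and Bnip3 from -0.21 to 0.48. With TMM, the log2 fold changes of the members other than Dnm1l ran from 0.287 to 0.469 (Mfn1), 0.474 to 0.709 (Mfn2), 0.284 to 0.432 (Opa1), 0.198 to 0.423 (Fis1), 0.228 to 0.468 (Mff), 0.487 to 1.04 (Pink1), 0.527 to 1.31 (Bnip3), 0.29 to 0.637 (Bnip3l) and -0.248 to -0.055 (Fundc1) without one library. The ratio differences ran from -0.015 to 0.156 (Mff to Fis1), 0.223 to 0.467 (Opa1 to Dnm1l) and 0.229 to 0.765 (Bnip3 to Bnip3l) without one library. The cause of these shifts was not tested. The labels do not say whether replicate numbers pair the libraries. Deviations of same-numbered libraries correlated at 0.223, -0.171 and -0.0184, and those of differently numbered ones at -0.375 to 0.243. So few correlations cannot settle whether there was pairing. With the replicate block 0 members passed KO against WT. Tests of ratios on 6 libraries or 3 pairs cannot reach the threshold. The self-test, in which few genes were changed, recovered few 2-fold changes, and its rates need not hold for these data.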
